A study of Rattus norvegicus with 16 samples.

Results

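The nitric oxide synthases were followed probe set by probe set on an Affymetrix Rat Neurobiology U34 array. All probe sets whose platform annotation gives Nos2, Nos1 or Nos3 were taken, which gave 10 of the 1263 probe sets for rat genes, or 3 of the 720 genes named there. Nos2 had 7 probe sets (AF006619_s_at, D44591_s_at, D83661_s_at, S71597_s_at, U03699complete_seq_at, U16359cds_at and U48829_s_at), Nos1 had 2 (U67309_at and X59949cds_s_at) and Nos3 had 1 (AF085195_at). Each is called below by the sequence record in its name. A probe set is a group of short oligonucleotides on the array that report on 1 target sequence, and an _s_at set may also match related sequences. The values of different probe sets are not on a common scale, so levels were not ranked between probe sets. The probe sequences were not used here, so which part of the Nos2 transcript U16359 or any other probe set reads is not given.

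Nitric oxide synthases make nitric oxide from arginine. The gene Nos2 encodes the inducible, calcium-independent enzyme, Nos1 the neuronal enzyme and Nos3 the endothelial enzyme, both of which need calcium and calmodulin. Inducible synthase is made after transcription of its gene has been switched on, typically by inflammatory cytokines acting through NF-kappa B, interferon signalling and C/EBP factors, and its promoter is also known as a target of the hypoxia-inducible factor Hif1a. In the cochlea nitric oxide has been studied as a vascular and neural messenger and as a source of peroxynitrite after stress.

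RNA came from 3 regions of the newborn rat cochlea, namely the organ of Corti, which carries the hair cells, the modiolus, which holds the auditory neurons, and the stria vascularis, the secretory epithelium of the lateral wall. Each region was measured in 3 conditions. Hypoxic explants were cultured for 24 h and exposed for 5 h to a pO2 of 10 to 20 mmHg, beginning 3 h after plating, with 16 h of recovery in normoxia (2 arrays per region). Normoxic explants were cultured for 24 h without hypoxia (2 arrays per region). Native tissue was frozen after dissection (2 arrays for the organ of Corti and 1 each for the modiolus and the stria vascularis). For these last 2 arrays the sample description says fresh tissue, while the protocol text speaks of collection after a day of cultivation; they were kept as native. Each of the 16 arrays was hybridised with a pool from 12 cochleae, and the labels give no strain, no sex and no pairing of pools. The p-values therefore measure the spread between these pools. In culture the 2 pools of a group were also scanned in different sessions, so that spread includes any difference between sessions.

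Intensities were deposited on a linear scale with the same trimmed mean of 2500 on every array. The number of arrays limits the precision, and with 1 native array in 2 regions the spread there is assumed to be that of the other groups. An array's background was set as the 95th percentile of its 23 probe sets for foreign sequences, and ran from 237 to 772 intensity units. The scan records placed all 4 native arrays in session 1 and the cultured arrays in session 2 (repeat 1) and session 3 (repeat 2). Native tissue and its scan session can therefore not be told apart. The Gapdh control read at the 3' end was 1.07 to 1.39 times as bright as at the 5' end on cultured arrays. On native arrays it was 3.39 to 4.76 times as bright. The same ratio for beta-actin overlapped, at 1.73 to 2.78 on cultured and 1.67 to 2.41 on native arrays. The part of these ratios in any difference between culture and native tissue was not tested. Region labels were set against markers. Summed intensity of the 7 probe sets for strial genes was 31366 and 32324 in hypoxic, 27068 and 30018 in normoxic and 99226 in native stria vascularis, and at most 10452 on any array of the other regions. The 20 probe sets for neuronal genes summed to 22354 to 36009 on strial arrays and to 51117 to 145291 elsewhere. These sums set the stria vascularis apart but did not single out the modiolus. Hypoxic modiolus gave 51117 and 63009, around the 59561 and 59889 of hypoxic organ of Corti. Normoxic modiolus gave 51395 and 60370, below the 78827 and 83304.5 of normoxic organ of Corti. Native modiolus gave 133501, below the 134370 and 145291 of native organ of Corti. None of the 8 hair cell markers looked for was on the array, so the organ of Corti could not be checked in that way.

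S71597 and U03699 were above background on 16 of 16 arrays. U16359 and U48829 were above it on 12 arrays, D83661 on 11, AF006619 on 8 and D44591 on 3. The probe sets of Nos1 and Nos3 were above background on 0 of 16 arrays.

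The first comparison asked how 5 h of hypoxia, followed by recovery, changed the explants relative to normoxic culture. Of the 7 Nos2 probe sets, 1 rose and the other 6 did not pass the test. The probe set that rose was U16359. Its intensities were 793.4 and 1268.5 in hypoxic and 433.6 and 327.7 in normoxic organ of Corti. They were 5274.1 and 4139.8 in hypoxic and 490.4 and 422.8 in normoxic modiolus. They were 1318.8 and 1556.3 in hypoxic and 314.8 and 1316.7 in normoxic stria vascularis. Within each region both hypoxic arrays were above both normoxic arrays (closest in the stria vascularis, at 1318.8 and 1316.7), whereas across regions the ranges overlapped. Such a separation in all 3 regions, hypoxia above normoxia, was seen for 0.95% of all probe sets.

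Averaged over the 3 regions, U16359 had a mean of 2392 ± 1845 in hypoxic and 551 ± 381 in normoxic explants (SD, n = 6 arrays each, regions included in the SD). The difference of log2(intensity + 16) was 1.94 ± 0.30 (SE; 95% interval 1.29 to 2.59; limma adjusted p = 0.036). Neither normoxic modiolus array and only 1 of 2 normoxic arrays in each other region were above background, so the size is not exact. In this comparison 0.158% of all probe sets passed, and both that did were higher under hypoxia. Values by scan session were 2.08 in session 2 and 1.79 in session 3, with 3 of 3 regions higher under hypoxia in each, and the call held with the repeat number as a block (adjusted p = 0.027). The call was narrow: leaving out 1 array at a time kept the difference between 1.60 and 2.27, but the adjusted p ran from 0.00039 to 0.12. It was above 0.05 in 11 of 14 cases, namely without either array of native organ of Corti, normoxic organ of Corti, normoxic modiolus, hypoxic organ of Corti or hypoxic modiolus, and without repeat 2 of hypoxic stria vascularis.

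By region, the rise of U16359 passed in the modiolus and not in the other regions. In the modiolus the difference was 3.31 ± 0.52 (SE; adjusted p = 0.040), with means of 4707 ± 802 under hypoxia and 457 ± 47.8 in normoxia (SD, n = 2 each, fitted with limma). With the normoxic arrays, which were not above background, raised to their array's background, it was at least 7.73-fold. Within scan sessions it was 3.38 in session 2 and 3.24 in session 3. With the repeat number as a block, which in culture is also the session, the call was lost (adjusted p = 0.061); with a term for session 3 the adjusted p was 0.044. It was the single probe set called there, or 0.0792% of all. Across the alternatives with 1 array left out this difference was 3.14 to 3.49, and its adjusted p was 0.00083 to 0.19. The p stayed under 0.05 only without either normoxic strial array. In the organ of Corti the difference was 1.38 ± 0.52 (95% interval 0.25 to 2.50; limma adjusted p = 0.92, unadjusted 0.0208), where 0% of probe sets were called. In the stria vascularis it was 1.13 ± 0.52 (95% interval -0.0014 to 2.25; limma adjusted p = 0.87), where 0.238% were called, all lower. The strial value rested on repeat 1: the difference was 2.01 in session 2 and 0.24 in session 3. Whether the effect differed between regions was tested directly, and U16359 did not pass (limma F test, unadjusted p = 0.0215, adjusted p = 0.85). In that test 0% of probe sets were called, and among the 10 synthase probe sets 1 had an unadjusted p under 0.05.

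U03699 moved the other way without passing. Its intensities were 856.1 and 978.6 in hypoxic and 1152.5 and 1589.1 in normoxic organ of Corti. In the modiolus they were 3404.1 and 2392.1 under hypoxia and 2663.8 and 3645.2 in normoxia. In the stria vascularis they were 2018.8 and 2283.5 under hypoxia and 2870.1 and 4008.6 in normoxia. The hypoxic arrays lay below the normoxic ones in the organ of Corti and the stria vascularis and overlapped with them in the modiolus. How many of all probe sets were lower under hypoxia in this way was not counted. The mean difference was -0.45 ± 0.17 (95% interval -0.82 to -0.07; limma adjusted p = 0.54, unadjusted 0.0246).

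The 5 remaining Nos2 probe sets had hypoxia differences with intervals on both sides of 0. S71597 stood at 1252.1 and 579.8 in hypoxic and 1288.8 and 685.2 in normoxic organ of Corti, 1564 and 2057.5 in hypoxic and 1592 and 2142.6 in normoxic modiolus, and 821.2 and 1594.5 in hypoxic and 1018.9 and 1773.1 in normoxic stria vascularis. D83661 stood at 668.1 and 442.5 in hypoxic and 754.8 and 448.5 in normoxic organ of Corti, 588.7 and 1082.9 in hypoxic and 1021 and 1787 in normoxic modiolus, and 529.4 and 1147 in hypoxic and 680.8 and 1346.5 in normoxic stria vascularis. For both probe sets the ranges of the conditions overlapped in every region. Within each region and scan session the hypoxic array was below the normoxic one. The log2 differences were -0.78 to -0.02 for D83661 and -0.31 to -0.03 for S71597. The share of all probe sets that were lower in every such pair was not counted, and the fit did not pair the repeats. AF006619 stood at 237.6 to 931.8 in hypoxic and 322.7 to 955.9 in normoxic explants, with the highest array of each condition in the modiolus. U48829 stood at 618.3 and 489.3 in hypoxic and 291.9 and 463.9 in normoxic organ of Corti, 717.5 and 337.6 in hypoxic and 146.2 and 908.2 in normoxic modiolus, and 187.9 and 753.5 in hypoxic and 365 and 882.1 in normoxic stria vascularis. Its hypoxic arrays were above the normoxic ones in the organ of Corti and overlapped with them in the other regions. The share of all probe sets separated in this way was not counted. S71597 had a difference of -0.14 (95% interval -0.73 to 0.46), D83661 of -0.38 (-1.13 to 0.38) and AF006619 of -0.05 (-0.94 to 0.84). U48829 had a difference of 0.13 (-0.91 to 1.18) and D44591 of -0.56 (-2.01 to 0.89). The upper limits of these 5 intervals are below 1.29, the lower limit for U16359. The median over the 7 Nos2 probe sets was -0.14, against 0.05 over all probe sets.

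The second comparison set explants after a day of normoxic culture against native tissue. Here 3 of the 7 Nos2 probe sets passed, and they did not move the same way: U03699 and D83661 rose and U16359 fell. Over all probe sets 32% passed, 13.3% higher and 18.7% lower, so a call by itself was common in this comparison. The median of the 7 was 0.87, against -0.14 over all probe sets.

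U03699 averaged 2655 ± 1118 in normoxic explants (n = 6 arrays) and 522 ± 94.3 in native tissue (SD, n = 4). On native arrays it stood at 441.1 and 506.3 (organ of Corti), 483.1 (modiolus) and 657.5 (stria vascularis), so that every normoxic array, from 1152.5 upward, was above every native one. That was so for 8.79% of all probe sets. The difference was 2.16 ± 0.20 (SE; limma adjusted p = 4e-06), which is 4.46-fold. By region it was 1.49 in the organ of Corti (limma adjusted p = 0.0043), 2.65 in the modiolus (adjusted p = 0.00027) and 2.34 in the stria vascularis (adjusted p = 0.0011); the shares of all probe sets called in these regions were 17.3%, 20.9% and 13.7%. Without repeat 2 of the normoxic organ of Corti the value for that region was 1.26 with an adjusted p of 0.051.

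U16359 went down in culture. It averaged 551 ± 381 in normoxic explants (n = 6) and 3720 ± 1077 in native tissue (SD, n = 4). The native arrays stood at 3655.9 and 2411.3 (organ of Corti), 3765.5 (modiolus) and 5045.8 (stria vascularis), all above the highest normoxic array of 1316.7, a separation seen for 8.55% of all probe sets. The difference was -2.95 ± 0.35 (SE; limma adjusted p = 2.8e-05). By region it was -2.92 in the organ of Corti (adjusted p = 0.0018), -3.00 in the modiolus (adjusted p = 0.0044; at least 6.24-fold, since normoxic modiolus was not above background) and -2.93 in the stria vascularis (adjusted p = 0.0083), all by limma. The strial value moved most when 1 array was left out, between -3.94 and -1.93, and kept an adjusted p of at most 0.025.

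D83661 rose in culture. Beside the normoxic values given above, it stood at 197.1 and 476.5 in native organ of Corti, 266.5 in native modiolus and 204.4 in native stria vascularis. Only the organ of Corti arrays overlapped. In the other regions 2 normoxic arrays were set against 1 native array. How many of all probe sets were separated there was not counted. The difference was 1.77 ± 0.40 (SE; limma adjusted p = 0.0043). The native modiolus and stria vascularis were not above background. Within regions it passed in the modiolus alone, at 2.28 (limma adjusted p = 0.045; at least 4.37-fold). With the repeat number as a block its adjusted p was 0.051, and that call was lost in 7 of 14 cases with 1 array left out, with a highest adjusted p of 0.18 without repeat 2 of the normoxic modiolus. The other cases were those without either array of normoxic or hypoxic organ of Corti, without repeat 1 of the normoxic modiolus and without repeat 2 of the normoxic stria vascularis.

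The 4 other Nos2 probe sets did not pass. S71597 stood at 685.2 to 2142.6 in normoxic explants and 663.2 to 925.9 in native tissue, with a difference of 0.78 ± 0.32 (limma adjusted p = 0.083). AF006619 had a difference of 0.87 (adjusted p = 0.19), D44591 of 1.18 (adjusted p = 0.28) and U48829 of -0.82 (adjusted p = 0.30). U48829 and U16359 were the 2 Nos2 probe sets with a negative value, U48829 at 146.2 to 908.2 in normoxic explants and 584.5 to 871.7 in native tissue. No synthase probe set passed the test for a culture effect that differed between regions (smallest limma adjusted p = 0.38, with 0 of 10 at an unadjusted p under 0.05; 3.33% of all probe sets passed).

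Hypoxic explants were also set against native tissue, a comparison added after the others were known; it shares its arrays with both. In the modiolus U16359 stood at 5274.1 and 4139.8 on the hypoxic arrays and at 3765.5 on the native array, a difference of 0.31 (95% interval -1.07 to 1.69; limma adjusted p = 0.83). In the organ of Corti its difference was -1.55 (adjusted p = 0.059) and in the stria vascularis -1.80 (adjusted p = 0.080); without either normoxic strial array these 2 values passed, with adjusted p-values of 0.0073 to 0.012. The mean of the regions was -1.01 (adjusted p = 0.043, where 30.1% of all probe sets were called). That call was lost in 8 of 14 cases with 1 array left out, namely without either array of normoxic organ of Corti, hypoxic modiolus or hypoxic stria vascularis and without repeat 1 of native or of hypoxic organ of Corti, with adjusted p-values up to 0.10. U03699 remained higher under hypoxia than in native tissue, by 1.71 (adjusted p = 3.1e-05), and D83661 by 1.39 (adjusted p = 0.018).

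Over the 9 groups, the order of U16359 was led by native stria vascularis, hypoxic modiolus, native modiolus and native organ of Corti, with means of 5046, 4707, 3766 and 3034. Native stria vascularis lay inside the range of hypoxic modiolus, so the order of these 2 was not settled. A gap, not counted over all probe sets, followed between the lowest native organ of Corti array at 2411.3 and the highest strial array under hypoxia at 1556.3. Below it came hypoxic stria vascularis (1438 ± 168), hypoxic organ of Corti (1031 ± 336) and normoxic stria vascularis (816 ± 708; SD, n = 2 each). Hypoxic organ of Corti lay inside the range of normoxic stria vascularis. Normoxic modiolus had a mean of 457 ± 47.8 and normoxic organ of Corti of 381 ± 74.9, both inside the range of normoxic stria vascularis (314.8 to 1316.7). With at most 1 of 2 arrays above background in each, the order of the 3 normoxic groups was not settled.

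The order of U03699 was a different one. Normoxic stria vascularis (3439 ± 805), normoxic modiolus (3154 ± 694) and hypoxic modiolus (2898 ± 716) overlapped at the top. Hypoxic stria vascularis (2151 ± 187), normoxic organ of Corti (1371 ± 309) and hypoxic organ of Corti (917 ± 86.6; SD, n = 2 each) followed without overlap between neighbours. The native arrays, from 441.1 to 657.5, were below all of these. With n = 2 per cultured group this order was not tested, and its separations were not counted over all probe sets.

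Between regions, averaged over the 3 conditions, U03699 was the single Nos2 probe set that passed. It was lower in the organ of Corti than in the modiolus by a log2 difference of -0.95 ± 0.19 (limma adjusted p = 0.0025; 23.9% of all probe sets called). Against the stria vascularis the difference was -0.998 ± 0.19 (adjusted p = 0.0019; 17.2% called). Means of U03699 in organ of Corti and modiolus were 1370.8 and 3154.5 in normoxia and 917.35 and 2898.1 under hypoxia. In native tissue they were 473.7 and 483.1, so the averaged gap to the modiolus was not seen there. The single native strial array stood at 657.5. All 7 Nos2 probe sets had a negative value against both regions, averaged over conditions. They report on 1 gene on the same arrays, and the share of all probe sets with a negative value was not counted. Against the modiolus their median was -0.78, with -0.20 over all probe sets. The Nos1 and Nos3 probe sets were negative there too, but were above background on 0 of 16 arrays. Against the stria vascularis the median of the 7 Nos2 probe sets was -0.27, with 0.11 over all probe sets. There AF006619 (-0.0040) and U48829 (-0.039) hardly differed. The next smallest limma adjusted p-values were 0.055 for U16359 and 0.076 for S71597, both against the modiolus. Without repeat 1 of normoxic stria vascularis U16359 passed too, at -0.93 against the modiolus (adjusted p = 0.0059) and -1.01 against the stria vascularis (adjusted p = 0.0069). Without repeat 2 it passed against the modiolus (adjusted p = 0.0068), and without repeat 1 of hypoxic organ of Corti S71597 did, at -0.97 (adjusted p = 0.034). None passed between modiolus and stria vascularis (smallest limma adjusted p = 0.26 over the 7, 0 at an unadjusted p under 0.05), where 25.4% of all probe sets were called.

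D44591 stood apart in another way. On 13 of 16 arrays it was not above background, with values between 51.2 and 183. The exceptions were the second repeats of hypoxic stria vascularis (809.7), normoxic stria vascularis (867.2) and normoxic modiolus (788.8), while the first repeats of the same groups gave 51.2, 100.3 and 151.7. All 3 exceptions belong to scan session 3.

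The repeats were therefore compared for all Nos2 probe sets. In hypoxic stria vascularis repeat 2 was above repeat 1 for 7 of 7 probe sets, by a median of 1.09 on the log2 scale, and in normoxic stria vascularis for 7 of 7, by 0.97. In normoxic modiolus it was above for 6 of 7 (median 0.80) and in hypoxic modiolus for 4 of 7 (median 0.39). In the organ of Corti it was above for 2 of 7 under hypoxia (median -0.33), 4 of 7 in normoxia (0.26) and 2 of 7 in native tissue (-0.28). The median over all probe sets was between -0.14 and 0.0044 in these groups. A term for session 3 in the model gave 1.63 ± 0.49 for D44591 (limma adjusted p = 0.091, unadjusted 0.00631), 0.82 for U48829 (adjusted p = 0.28) and 0.73 for AF006619 (adjusted p = 0.26). None of the 10 synthase probe sets passed that test by limma, 1 had an unadjusted p under 0.05, and 3.56% of all probe sets passed.

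Over the 12 cultured arrays, all 21 pairs of Nos2 probe sets had a positive correlation of log2 values. In the 15 pairs without U16359 Pearson's r was 0.20 to 0.88 (median 0.60), and in the 6 pairs with it r was 0.0031 to 0.28 (median 0.18). After adjustment over the 21 pairs, 5 passed by Pearson's r and 6 by Spearman's rho (permutation tests with 100000 resamples), none of them with U16359. The points share region, condition and session, so these values describe the arrays. D83661 and S71597 were the closest pair (r = 0.88, rho = 0.93; adjusted permutation p = 0.0018 and 0.00063), with r = 0.87 without the 2 arrays farthest from the median of D83661. D44591 and D83661 followed (r = 0.85, rho = 0.77; adjusted permutation p = 0.0018 and 0.022; r = 0.86 without the 2 farthest arrays). AF006619 correlated with D44591 at r = 0.81 and rho = 0.86 (adjusted permutation p = 0.0079 and 0.0067; r = 0.88 without the 2 farthest arrays). D44591 was above background on only 3 of the 12 cultured arrays, all in session 3. Leaving out the 2 farthest arrays did not remove all of these 3 in either pair with D44591. That check could therefore not show whether the closeness depends on them.

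The closeness differed by session. Within the 6 arrays of session 3, all 15 pairs without U16359 were positive, with a median r of 0.85. Within the 6 of session 2, 11 of 15 were positive, with a median r of 0.26. For D83661 and S71597 r was 0.96 in session 3 and 0.61 in session 2. The 6 pairs with U16359 had a median r of 0.096 in session 3 and 0.012 in session 2. The difference between sessions was not tested.

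Likeness to other genes was taken over the 9 group means, for probe sets above background on at least 4 arrays, among 839 candidates. Closest to U03699 were Gsta1, a glutathione transferase (r = 0.97), Il1b, the cytokine interleukin 1 beta (r = 0.97), and Ccl3, a macrophage chemokine (r = 0.96). Closest to D83661 were the chemokine Cxcl2 (r = 0.96), the growth factor receptor Pdgfra (r = 0.95) and the cAMP phosphodiesterase Pde4b (r = 0.95). Closest to S71597 were the cytokine Il6 (r = 0.95), the transcription factor Crem (r = 0.94) and the sheddase Adam17 (r = 0.94). AF006619 was closest to the transcription factor Stat3 (r = 0.96), to Plat, tissue plasminogen activator (r = 0.95), and to the p38 kinase Mapk14 (r = 0.94). U16359 had another company: the potassium channel subunit Kcnd2 (r = 0.94), the muscarinic receptor Chrm3 (r = 0.92) and the serotonin transporter Slc6a4 (r = 0.85). U48829 was closest to the synaptotagmin Syt5 (r = 0.90), the STAT inhibitor Pias3 (r = 0.90) and the NMDA receptor subunit Grin2c (r = 0.89). These are the highest values among many candidates and carry no test.

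The neuronal and endothelial synthases were not above background in any group. Nos1 stood at 32.8 to 228.2 on U67309 and 46.3 to 128.8 on X59949, and Nos3 at 15.4 to 100.4 on AF085195, none of them above its array's background. In the modiolus Nos3 stood at 90.1 and 100.4 under hypoxia and 45.3 and 47.2 in normoxia, all below background. None of these 3 probe sets passed any test. For Nos1 and Nos3 a difference was thus not detectable on these arrays, which is not evidence that there was none.

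Genes around nitric oxide were taken as 4 lists and tested in the same fits; they were drawn up with earlier results of these data known. Under hypoxia none of their 40 probe sets passed by limma, where 0.158% of all probe sets did. At an unadjusted p under 0.05, 0 were higher and 5 lower, a share that was not counted over all probe sets. The 5 were both probe sets of Il1b, both of Hmox1 and that of Il1a, which was not above background in any hypoxic group. In culture against native tissue the lists differed.

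Of the genes known to switch on Nos2 or to act upstream of it, 12 of 23 were on the array, with 19 probe sets. In culture 13 of these rose and none fell (unadjusted, 13 higher and 0 lower), against 13.3% higher and 18.7% lower over all probe sets, with a median of 1.57 against -0.14 over all probe sets. Cebpb, a C/EBP factor, averaged 18591 in normoxic explants and 1338 in native tissue on X60769mRNA_at, a log2 difference of 3.79 ± 0.13 (limma adjusted p = 2.3e-10). Il1b averaged 2212 in normoxic explants and 98.7 in native tissue on E01884cds_s_at, at least 5.06-fold with the native groups, none above background, raised to it. Jun, a subunit of AP-1, rose by 2.59 ± 0.16 and Hif1a by 1.57 ± 0.18 (7467 in normoxic explants and 2634 in native tissue). Both probe sets of Irf1, an interferon response factor, rose, by 1.47 and at least 3.44-fold (1 native group not above background). The 6 probe sets that did not pass were those of Nfkb1, Tnf, Tnfrsf1a and Ifng and 1 of 3 of Fos. Under hypoxia Il1b stood at 1183 against 2212 in normoxia on E01884cds_s_at and at 1669 against 3220 on M98820_g_at, differences of -0.95 and -0.85 that did not pass (limma adjusted p = 0.20 and 0.30). Hif1a messenger differed by -0.16 (adjusted p = 0.93).

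Of the genes that supply or hold the enzymes, 7 of 25 were measured, with 1 probe set each. In culture 3 fell and none rose, where 18.7% of all probe sets fell. They were Calm2, a calmodulin gene (-0.61 ± 0.14), Dlg4, the scaffold PSD-95 that binds neuronal synthase (-0.46 ± 0.14), and Dynll1, a dynein light chain that binds neuronal synthase (-1.08 ± 0.12). The other calmodulin gene measured, Calm3, had a difference of 0.019 (limma adjusted p = 0.93). Hsp90ab1, a chaperone of the synthases, had a difference of 0.35 (limma adjusted p = 0.093) and Slc7a2, a carrier of arginine, of 0.56 (adjusted p = 0.48). Nos1ap did not pass and was not above background on any array. The arginine-recycling enzyme Ass1 and the cofactor enzyme Gch1 were not among the named genes of the array.

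Of the nitric oxide and cGMP signalling genes, 4 of 22 were measured with 6 probe sets, namely Cnga1, Cnga3, Cnga4 and Gucy2d. In culture none passed by limma, adjusted or unadjusted. Of the genes for handling superoxide and peroxide, 4 of 15 were measured with 8 probe sets, of which 4 rose and 2 fell in culture, against 13.3% and 18.7% of all probe sets. Both probe sets of Hmox1, heme oxygenase 1, rose, by 3.49 ± 0.12 on rc_AI179610_at and by 6.14 ± 0.19 on J02722cds_at, where 1 native group was not above background (at least 53.0-fold). Mitochondrial Sod2 rose by 2.96 ± 0.43, and 1 of 2 probe sets of extracellular Sod3 rose by 1.79 ± 0.53, with 1 native group not above background. Cytosolic Sod1 fell on 2 of 3 probe sets, by 1.12 on Y00404_s_at and by 0.68 on M25157mRNA_i_at. Under hypoxia Hmox1 had differences of -0.62 and -0.55 (limma adjusted p = 0.26 and 0.056).

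Cell types that carry these enzymes elsewhere were looked for with markers. Macrophages are a known source of Nos2, and 1 of 11 of their markers was on the array. That marker, Itgam, stood at 150.6 to 456.4 in hypoxic explants, 111.9 to 524.7 in normoxic explants and 188.7 to 269.6 in native tissue, and was above background on 0 of 16 arrays. Endothelium was covered by 1 of 9 markers, Edn1, at 244.6 to 1095.2 in hypoxic explants, 250.8 to 663 in normoxic explants and 343 to 690.8 in native tissue. Edn1 was above background on 7 of 16 arrays. Of the 20 probe sets for neuronal genes 10 fell in culture and none rose, and of the 8 for Schwann cells and glia 7 fell and none rose, against 18.7% lower and 13.3% higher over all probe sets. Of the 7 for strial genes 1 fell and none rose, with the sums given above. Of the 7 for fibroblasts and muscle 4 rose, with Pdgfra at 3 of its 5 probe sets and Pdgfrb, and 1 fell, Vim. Their part in the Nos2 values was not tested. In whole tissue, fewer cells of a type and less RNA per cell cannot be told apart.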

How the data were processed

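The authors' deposited table holds 1 intensity per probe set and array on a linear scale; the software and background step behind it are not given in the sources used here. From the values, the 2% trimmed mean was 2500 on every array. Scan sessions were read from the run records, per the file headers. Of 1322 probe sets, 59 controls were left out. Gene names came from the platform annotation (1137 probe sets with 1 symbol, 8 with several, 118 with none).

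Values were taken as log2(intensity + 16). One model with 9 group means was fitted to all 16 arrays and 1263 probe sets with limma 3.58.1 in R 4.3.3 (empirical Bayes with a variance trend, 7 residual degrees of freedom, Benjamini-Hochberg over all probe sets, threshold 0.05). On simulated data of 1263 probe sets, 62.5% of 2-fold and 97.5% of 4-fold changes were recovered for hypoxia against normoxia. For normoxia against native 51.6% and 94.3% were recovered. The simulated noise was independent between arrays, with no session effect. Changes were planted in a far larger share of probe sets than the 0.158% called for hypoxia. The recovery for hypoxia is therefore not the power of the real comparison. Over all probe sets, repeat differences correlated by -0.0058 to 0.28 between the cultured groups, so the repeat numbers were not taken as pairs. For D83661 and S71597, however, they were alike under hypoxia and normoxia within each region. For D83661 they were -0.58 (hypoxia) and -0.73 (normoxia) in the organ of Corti and 0.86 and 0.80 in the modiolus. In the stria vascularis they were 1.09 and 0.97. For S71597 they were -1.09 and -0.90, 0.39 and 0.42, and 0.94 and 0.79 in the same order. The main model left this shared spread in the intervals of both.

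The probe sets and gene lists were chosen with earlier results of these data known. Named were all synthase probe sets, the 3 most alike genes of each, and in each list the members with the smallest p plus Il1b and Hif1a. For the genes that supply or hold the enzymes all measured members were named. Alternatives covered pseudocount, normalization, a filter on dim probe sets, variance model, array weights, repeat, session, arrays fitted and leaving out each array.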

Additional observations from a re-analysis of the deposited data

How the results depend on the processing

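The 3 Nos2 probe sets called in normoxic culture against native tissue, averaged over regions, were called under every alternative tried. The single call for hypoxia against normoxia over the 3 regions became 0 calls without a variance trend and with array weights, and 0 to 1 with 1 array left out. The single call within regions (U16359 in the modiolus) became 0 with a pseudocount of 1, with arrays centred on their median, without a variance trend, with array weights and with the repeat number as a block, and 0 to 1 with 1 array left out. That replicate block left the difference at 3.31 with an adjusted p of 0.061; over regions the blocked fit kept the hypoxia call, and in normoxic against native modiolus the block moved D83661 to 2.02 with an adjusted p of 0.051. The 7 calls of culture within regions became 5 to 7. The 2 calls between regions became 2 to 4 with 1 array left out, the most without repeat 1 of normoxic stria vascularis, and 3 under 6 other settings, which added U16359 in the organ of Corti against the modiolus. No alternative gave a synthase probe set an effect that differed between regions. U16359 in the modiolus minus the stria vascularis, 0.26 and not called, turned to -0.14 with arrays centred on their median and was -0.075 to 0.59 with 1 array left out, negative without repeat 1 of normoxic stria vascularis. Fitted on the compared arrays alone, its fall in cultured stria vascularis lost its call (adjusted p = 0.16). Of 468 alternative values of the 19 called differences, 412 kept the call, 56 lost it and 0 changed sign. Of 3167 alternative values of the 131 differences not called, 23 became calls and 133 changed sign. In hypoxic against native organ of Corti the gains were U16359 with a pseudocount of 64, a filter on dim probe sets, array weights or a session 3 term, and U03699 with that filter, array weights or the replicate block, besides those with 1 array left out. The causes were not tested. Depth is limited by signal over background: D44591, Nos1 and Nos3 gave at most 3 arrays above it.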
